A study of Mus musculus with 2 samples.

Results

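The Z-disc is the plate at which the actin filaments of neighbouring sarcomeres meet, and 10 of the genes that build or anchor it were followed here: the alpha-actinins Actn1, Actn2, Actn3 and Actn4, the myozenins Myoz1, Myoz2 and Myoz3, and the anchor genes Tcap, Myot and Synpo2l. They were chosen by gene name from 15371 annotated mouse genes with at least 1 read, and all 10 had reads in both libraries. The study sequenced full-length RNA molecules from the gastrocnemius, a mostly fast-twitch calf muscle, of female B6CASTF1/J mice aged 2 months. These mice are the first-generation offspring of a cross between laboratory strains, with no treatment or engineered allele named in the labels. There is 1 group of 2 libraries, each started from 2 µg of RNA, replicate 1 of animal 3 and replicate 2 of animal 4. A single donor identifier covers the pair, so that 2 animals were counted from the animal numbers alone.

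Alpha-actinin dimers cross-link actin filaments of opposite polarity and so set up the Z-disc lattice. Actn2 and Actn3 encode the sarcomeric forms, of which Actn3 is made in fast glycolytic fibres, while Actn1 and Actn4 encode forms found mainly in non-muscle cells. Myozenins, also called calsarcins, bind alpha-actinin, filamin C, telethonin (the product of Tcap) and the phosphatase calcineurin, and myotilin (Myot) binds alpha-actinin, filamin C and actin.

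The libraries held 1349298 and 1359923 reads, and each long read was counted as 1 molecule. Synthetic spike-in RNA took 3.61% and 1.48% of them. Skeletal muscle markers were present in both, at 143567 and 147335 CPM (read counts scaled to equal library totals) summed over 8 of 8 listed genes. The libraries differed in fibre-type markers: the summed level of 8 slow-fibre genes was 1354 CPM in replicate 1 and 9199 CPM in replicate 2, and all 8 were called higher in replicate 2. Adipocyte genes were called lower in replicate 2 for 6 of 6 and Schwann cell genes for 5 of 5 tested, with summed levels of 1127 against 106.6 CPM and 668 against 96.3 CPM. Smooth muscle and pericyte genes, of which 4 of 7 were called lower, stood at 436.5 and 310.3 CPM, endothelial genes (1 of 6 called lower) at 206.0 and 144.1 CPM, and leukocyte genes (1 of 4 tested called lower) at 117.8 and 77.2 CPM. Fibroblast genes, with 1 called higher and 1 lower, stood at 1914 and 1887 CPM. Of the 10 fast-fibre genes, 4 were called higher and 5 lower in replicate 2. The part of these differences in the values of the Z-disc genes was not tested, and in bulk tissue fewer fibres of a type and less RNA per fibre cannot be told apart.

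The 4 alpha-actinin genes share one exon plan, and the sequences of exon 19 are shown first because this is the internal exon whose length sets the non-muscle forms apart. In the reference transcripts of the 4 genes (Actn1-201, Actn2-201, Actn3-201 and Actn4-201), each of 21 exons, 18 exons have the same length in all 4, and together they hold 2334 bases. The exceptions are the first exon, the last exon and exon 19, which is 66 bases long in Actn2 and Actn3 and 81 bases long in Actn1-201 and Actn4-201. Actn1 and Actn4 each carry a second version of 66 bases, used in place of the other. Both lengths are whole numbers of codons, 22 and 27. The 66-base exons lie on the minus strand of mm10 at chr12:80170183-80170248 (Actn1), chr13:12272699-12272764 (Actn2), chr19:4862170-4862235 (Actn3) and chr7:28895121-28895186 (Actn4). All sequences were read from the GENCODE M21 transcripts, 5′ to 3′, and capitals mark the 31 positions at which the 4 genes are not identical.
Actn1 66-base exon 19: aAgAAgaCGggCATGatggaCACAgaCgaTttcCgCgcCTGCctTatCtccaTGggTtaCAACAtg
Actn2 exon 19: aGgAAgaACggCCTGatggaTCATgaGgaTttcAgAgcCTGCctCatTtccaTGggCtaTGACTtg
Actn3 exon 19: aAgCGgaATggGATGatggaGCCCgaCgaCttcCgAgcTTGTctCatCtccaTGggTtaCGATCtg
Actn4 66-base exon 19: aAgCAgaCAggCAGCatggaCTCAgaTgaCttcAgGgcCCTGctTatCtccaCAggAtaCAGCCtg

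Identity between these 66-base exons ran from 60.6% (Actn2 and Actn4) to 75.8% (Actn1 and Actn3). Over the 18 exons of equal length, identity ran from 74.8% (Actn3 and Actn4) to 81.1% (Actn1 and Actn4), and Actn2 and Actn3 were identical at 76.3% of bases. The 81-base versions lie at chr12:80170686-80170766 (Actn1) and chr7:28895432-28895512 (Actn4), and they were identical at 58 of 81 positions. Capitals mark the 23 that differ.
Actn1 81-base exon 19: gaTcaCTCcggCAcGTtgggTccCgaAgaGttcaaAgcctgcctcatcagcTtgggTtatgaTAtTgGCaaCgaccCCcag
Actn4 81-base exon 19: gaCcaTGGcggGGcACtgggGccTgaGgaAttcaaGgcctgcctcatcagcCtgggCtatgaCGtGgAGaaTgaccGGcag

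The members spanned a wide range of levels, and the sarcomeric forms held nearly all of the reads. Together the 10 genes took 27934 reads in replicate 1 and 23174 in replicate 2, which is 2.07% and 1.70% of each library. Actn3 stood at rank 10 of all annotated genes by mean level, Tcap at 18, Actn2 at 30, Myoz1 at 37 and Myot at 42. Myoz2 (rank 439) and Synpo2l (rank 497) formed a middle step, and Actn4, Myoz3 and Actn1 were at or under 62.3 CPM in each library. Per kilobase of the longest annotated transcript with a read, the order changed at its top, because Tcap has a transcript of only 948 bases: Tcap led with a mean of 4639 CPM per kilobase, followed by Actn3 with 2487, Myoz1 with 1629, Actn2 with 957 and Myot with 806. Since each long read was counted as 1 molecule whatever its length, this order is not one of molecule numbers.

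**Figure D1:**
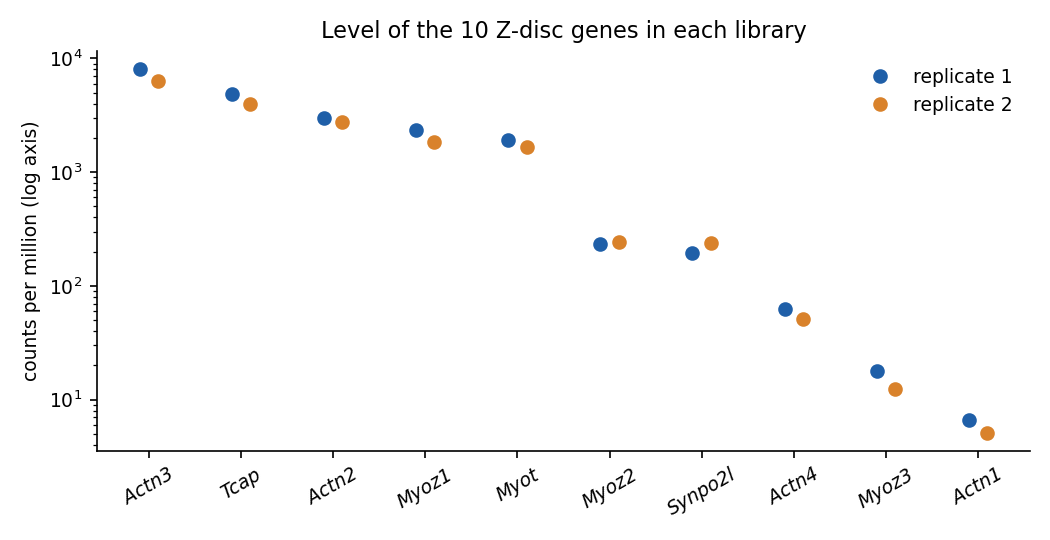
The level of each gene in CPM, on a log axis, with 1 point per library. The genes fall into a high group from Actn3 to Myot, a middle pair of Myoz2 and Synpo2l, and a low group from Actn4 to Actn1, and the 2 libraries sit close together for each gene.

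Actn3, the fast-fibre alpha-actinin on chromosome 19, gave 10905 reads in replicate 1 and 8538 in replicate 2, or 7180.1 ± 1275 CPM (SD, n = 2). The ratio of replicate 2 to replicate 1 was 0.777, with a 95% interval of 0.755 to 0.799. Actn2, the alpha-actinin of all striated fibres and of the heart, on chromosome 13, gave 4051 and 3756 reads, or 2882 ± 170.0 CPM (SD, n = 2), at a ratio of 0.920 (0.880 to 0.962). Both were lower in replicate 2, and the intervals of their ratios did not overlap. Actn4, a non-muscle form on chromosome 7, gave 84 and 69 reads, and Actn1, the other one, on chromosome 12, gave 9 and 7 reads. Smooth muscle, endothelial and leukocyte genes were also lower in summed level in replicate 2, and their part in these non-muscle forms was not tested. Neither gene passed the test, with ratios of 0.815 (0.594 to 1.12) and 0.772 (0.298 to 2.00), intervals wide enough to hold the ratio of Actn3. Actn4 took 0.558% of all alpha-actinin reads in each library and Actn1 took 0.0598% and 0.0566%.

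Myoz1, the myozenin of fast fibres, on chromosome 14, gave 3168 and 2517 reads, with a ratio of 0.788 and an adjusted p of 5.26e-17 (Fisher's exact test per gene, Benjamini-Hochberg). Myoz2, the myozenin of slow fibres and the heart, on chromosome 3, gave 313 and 331 reads, with a ratio of 1.05 (0.899 to 1.22) and an adjusted p of 0.870. Its level therefore stayed within counting error, whereas the median log2 ratio of the 8 slow-fibre genes was 2.53. Myoz3, another form described in skeletal muscle, on chromosome 18, gave 24 and 17 reads, and its ratio of 0.703 had an interval from 0.381 to 1.30. It made up 0.685% and 0.593% of the myozenin reads.

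Tcap encodes telethonin, the small protein that ties the ends of 2 titin molecules together at the edge of the Z-disc, and lies on the plus strand at chr11:98383811-98384953. It gave 6547 reads in replicate 1 and 5363 in replicate 2, with a ratio of 0.813 (0.784 to 0.843) and an adjusted p of 2.56e-27. Myot, on chromosome 18, gave 2570 and 2254 reads, with a ratio of 0.870 (0.822 to 0.921) and an adjusted p of 6.34e-05. Synpo2l, whose product binds actin and alpha-actinin at the Z-disc of heart and skeletal muscle, gave 263 and 322 reads, with a ratio of 1.21 (1.03 to 1.43) and an adjusted p of 0.162. Synpo2l and Myoz1 are neighbours on the same strand of chromosome 14, 2405 bases apart, and the ratio of one was above 1 while that of the other was below 1. No annotated gene overlapping a member held more than 1 read. Reads of a neighbour that were assigned to a member would not show in that number.

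In all, 5 of the 10 members were called lower in replicate 2 (Actn3, Tcap, Actn2, Myoz1 and Myot) and 0 higher. Over the 9341 genes with at least 10 reads, 3.56% were called lower, 4.25% higher and 7.82% in either direction. The 5 called members are also the 5 most abundant, and calls were common at that depth: of the 43 genes with at least as many reads as Myot, 34 (79.1%) were called and 23 (53.5%) were called lower. These 43 genes include the 5 called members themselves. The adjusted p was 1.37e-66 for Actn3 and 0.00554 for Actn2. The median log2 ratio was -0.29 over the 10 members, -0.11 over those 43 genes and -0.01 over all genes tested. Fisher's test takes counting error as the only error and compares 2 libraries. With an assumed dispersion of 0.01 in edgeR's exact test, 0 of the 10 members were called and 0 had an unadjusted p under 0.05, with a smallest unadjusted p of 0.0765.

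**Figure D2:**
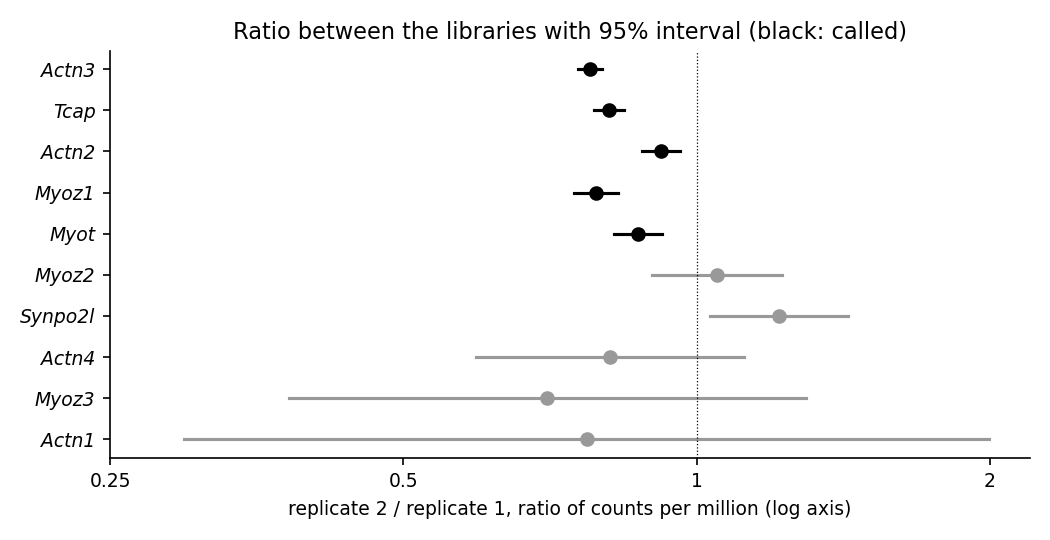
The ratio of CPM in replicate 2 to replicate 1 for each gene, on a log axis, as a point with its 95% interval from counting error. The 5 black genes passed Fisher's exact test and lie left of 1, from 0.777 for Actn3 to 0.920 for Actn2, and the 5 grey genes did not pass it.

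Among the 27 other Z-disc genes with a read, 4 were called higher and 4 lower in replicate 2, with a median log2 ratio of 0.02. Des, which encodes the intermediate filament protein desmin, gave 5235 and 4193 reads, with a ratio of 0.795 and an adjusted p of 1.64e-26. Fhl1, a LIM-domain protein, gave 2046 and 1376 reads (ratio 0.667, adjusted p 2.38e-29). Csrp3, the muscle LIM protein, gave 481 and 150 reads, and its ratio of 0.309 (0.258 to 0.372) was further from 1 than that of any of the 10 members. Pdlim3, a partner of alpha-actinin 2, gave 493 and 329 reads with a ratio of 0.662, and Xirp2 rose from 258 to 394 reads with a ratio of 1.52. Nrap (780 and 805 reads) and Capza2 (705 and 698 reads) did not pass the test. Of the 5 calcineurin genes, Rcan2, a regulator of calcineurin, was called higher in replicate 2, with 63 and 112 reads and an adjusted p of 0.00620, and 0 were called lower. The catalytic subunit genes Ppp3ca (417 and 400 reads) and Ppp3cb (89 and 113), the regulatory subunit gene Ppp3r1 (169 and 164) and the regulator Rcan1 (208 and 235) did not pass the test.

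The clearest difference in structure was in Actn2. Its full-length transcript Actn2-201 took 3152 of its 4051 reads (77.8%) in replicate 1 and 2636 of 3756 (70.2%) in replicate 2. Most of the rest lay on 1 unannotated model of 10 exons, which begins at exon 12 and keeps every later splice junction of Actn2-201. This model held 565 reads (13.9%, Wilson 95% interval 12.9% to 15.0%) in replicate 1 and 829 reads (22.1%, 20.8% to 23.4%) in replicate 2. Both shares passed Fisher's exact test between the libraries: the adjusted p was 5.91e-12 for Actn2-201 among the most abundant transcripts of 5025 genes, of which 1.65% were called, and 1.48e-18 for the 10-exon model among 4831 transcripts, of which 4.37% were called. Among the 8 members deep enough for the test of the most abundant transcript, only Actn2 was called.

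The shorter model was at a higher level in replicate 2, while the rest of the gene was called lower. Its own ratio of replicate 2 to replicate 1 was 1.46 (1.31 to 1.62), against 0.830 (0.788 to 0.874) for Actn2-201. Without the 10-exon model, Actn2 had 3486 and 2927 reads and a ratio of 0.833 (0.793 to 0.875, adjusted p 2.68e-11, Fisher's exact test). This interval overlaps those of Actn3 (0.755 to 0.799), Tcap, Myoz1 and Myot. The intervals of Actn2 and Actn3 were thus apart with the 10-exon model counted, and overlapped from 0.793 to 0.799 without it. Whether the ratios of these genes differ without the model was not tested. The 10-exon model was higher in the library in which the slow-fibre genes were higher, whose summed level was 1354 and 9199 CPM, and its relation to fibre type was not tested.

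The start at exon 12 was a single step rather than a gradient along the gene. Of the spliced Actn2 reads, 80.3% in replicate 1 and 72.8% in replicate 2 reached exon 1, and 14.2% and 22.5% began at exon 12. Each of the other internal exons was the most upstream one in 0.0494% to 0.722% of reads. In Actn3, which has the same exon lengths from exon 2 to exon 20, 93.8% and 94.1% of spliced reads reached exon 1, only 0.358% and 0.317% began at exon 12, and no internal exon exceeded 1.07%. The 10-exon model is given the annotated start of exon 12 as its 5′ end. Over all genes, 15980 of 18475 and 15177 of 17805 such 3′ partial models start at an annotated exon start (86.5% and 85.2%), so the base at which single molecules begin was not taken from the models. A model of this kind, a 3′ part of an annotated transcript with at least 10% of the reads in both libraries, was found in 81 of the 1416 genes whose reads numbered 100 or more in both libraries (5.72%).

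**Figure D3:**
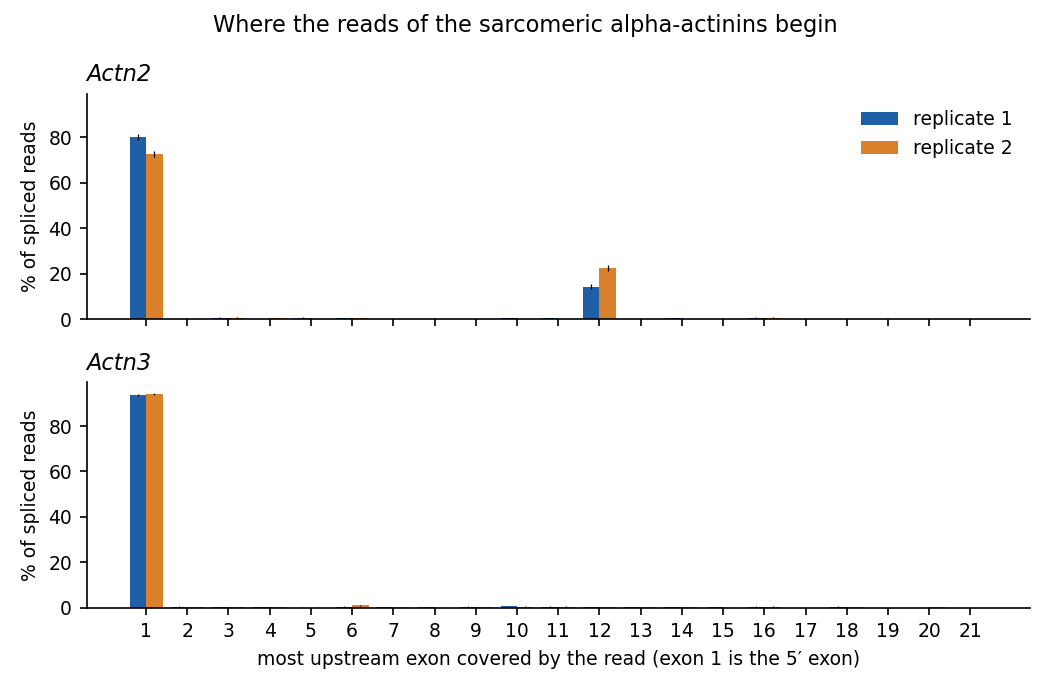
The share of spliced reads whose most upstream exon is each of the 21 exons, for Actn2 and Actn3, with 95% Wilson intervals and 1 bar per library. Actn2 has a second peak at exon 12, at 14.2% in replicate 1 and 22.5% in replicate 2, and Actn3 has none there.

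Exon 12 is shown for both genes because only one of them had the internal start. It lies at chr13:12288507-12288657 in Actn2 and at chr19:4865299-4865449 in Actn3, is 151 bases long in both and was identical at 114 positions (75.5%). Capitals mark the 37 positions that differ.
Actn2 exon 12: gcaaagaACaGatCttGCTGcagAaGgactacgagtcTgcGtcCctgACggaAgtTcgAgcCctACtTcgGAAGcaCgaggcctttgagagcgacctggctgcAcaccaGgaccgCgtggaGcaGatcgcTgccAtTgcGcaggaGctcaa
Actn3 exon 12: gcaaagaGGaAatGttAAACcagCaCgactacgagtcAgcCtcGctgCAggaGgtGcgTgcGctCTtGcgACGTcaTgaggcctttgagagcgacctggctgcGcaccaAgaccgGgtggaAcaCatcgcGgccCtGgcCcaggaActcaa
Exon 12 of Actn2 holds 0 ATG triplets in any frame. The first ATG in the annotated reading frame downstream of the exon 12 start lies in exon 14, at codon 532 of 894. Whether molecules of this kind are translated cannot be read from these counts.

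Actn3 was the more complete of the sarcomeric pair. Actn3-201 took 89.5% of its reads in replicate 1 and 89.6% in replicate 2, and its adjusted p between the libraries was 1. The intron before its last exon was retained in 79 of 10863 informative reads (0.727%) and 52 of 8493 (0.612%), the most of any Actn3 intron. Among the transcripts of Actn3 tested one by one, a 3′ part of 16 exons was called, with 61 and 87 reads (0.559% and 1.02%, adjusted p 0.00965). In Actn2, 46 of 4051 reads in replicate 1 lay on models drawn to 3009 bases past the annotated 3′ end. In replicate 2, 14 of 3756 lay on models drawn up to 3004 bases past it. Where the single reads end was not taken from the models, so the libraries were not compared in this.

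The non-muscle alpha-actinins were read for their exclusive exons, although few reads cover them. In Actn4 the 81-base exon 19 was used in 73 reads and the 66-base exon in 3 in replicate 1, and in 55 reads and 1 read in replicate 2, so that the 66-base share was 3.95% (1.35% to 11.0%) and 1.79% (0.316% to 9.45%). All of these 66-base reads lay on unannotated models of 1 read each, and the share was 0 when such models were left out. In Actn1 the 66-base exon was used in 7 reads and the 81-base exon in 2 in replicate 1, against 2 and 4 in replicate 2. The Actn1 shares of 77.8% (45.3% to 93.7%) and 33.3% (9.68% to 70.0%) have intervals that overlap. In each library, the Actn1 interval lies wholly above that of Actn4, though in replicate 2 only narrowly (9.68% against 9.45%). No read of either gene held both versions. Actn4 was tested with 105 annotated exclusive pairs, of which 1.9% were called, and its adjusted p was 1, while Actn1 had too few reads to be tested.

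Actn4 has a second exclusive pair, at exon 8, which is shown because the versions are of equal length and differ in letters alone. The version of Actn4-201 lies at chr7:28911490-28911575 and that of Actn4-202 at chr7:28909903-28909988. They are identical at 65 of 86 positions, and capitals mark the 21 that differ.
Actn4 exon 8 of Actn4-201: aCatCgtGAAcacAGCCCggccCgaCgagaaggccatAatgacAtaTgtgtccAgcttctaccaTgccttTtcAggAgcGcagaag
Actn4 exon 8 of Actn4-202: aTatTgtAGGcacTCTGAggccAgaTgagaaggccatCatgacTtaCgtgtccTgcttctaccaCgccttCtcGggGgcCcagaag
Between the annotated flanking splice sites, the version of Actn4-202 was found in 2 of 67 reads (2.99%, 0.822% to 10.2%) and 2 of 53 (3.77%, 1.04% to 12.8%), with an adjusted p of 1 (Fisher's exact test). With the flanking sites left free it was found in 6 of 72 reads (8.33%) and 3 of 54 (5.56%), and with annotated transcripts only in 0, so that the order of the libraries depends on the count used. Since a long read covers both choices, the pairs could be read together. The 81-base exon 19 was joined to the exon 8 of Actn4-201 in 64 reads of replicate 1 and 51 of replicate 2, and to that of Actn4-202 in 3 and 2. The 66-base exon 19 was joined to the exon 8 of Actn4-202 in 2 reads and 1 read, and to that of Actn4-201 in 1 read of replicate 1.

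Myot showed 2 splice-site choices that were stable between the libraries. Myot-201, with the longer exon 2, took 50.7% and 51.1% of its reads, and Myot-202, with the shorter exon 2, took 30.7% and 32.1%. Of the reads that joined exon 1 to either version, the shorter exon 2 was used in 897 of 2390 (37.5%) and 805 of 2116 (38.0%). A splice site 3 bases upstream lengthened exon 5 from 47 to 50 bases, a form not in the annotation, in 233 of 2525 reads (9.23%) and 193 of 2231 (8.65%). Within replicate 1, the longer exon 5 made up 9.61% of reads with the long exon 2 and 9.39% of those with the short one, and within replicate 2 8.47% and 8.70%. The choice at exon 5 thus differed by less than its counting error between the versions of exon 2.

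The class shares of Myot moved between the libraries although these structures did not. Models with a new splice site held 6.46% of its reads in replicate 1 and 1.73% in replicate 2, and models with a new combination of known sites held 4.40% and 8.96%. The 10-exon structure with the long exon 2 and the 50-base exon 5 was placed in the first class in replicate 1 and in the second in replicate 2, at 136 reads (5.29%) and 105 reads (4.66%). Matched by splice junctions, its share did not differ beyond counting error (adjusted p 0.899).

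**Figure D4:**
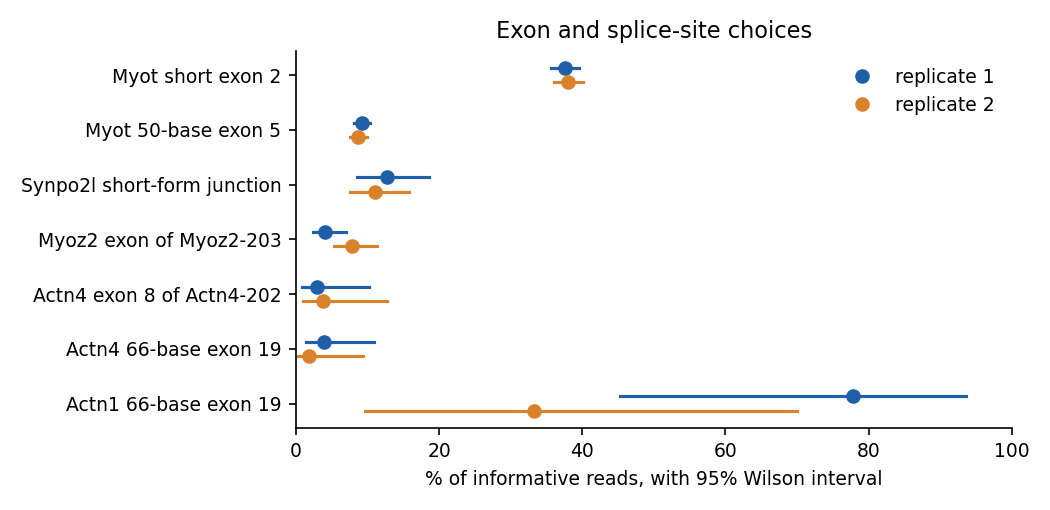
The share of informative reads with each exon or splice-site version, as points with 95% Wilson intervals, 1 colour per library. The Myot shares are narrow and near 38.0% and 8.65% in replicate 2, and the Actn1 share, on 9 and 6 reads, has the widest intervals.

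Tcap, Myoz1 and Myoz2 were read almost wholly as annotated transcripts. Tcap-201 took 96.9% and 96.6% of Tcap reads. A single-exon model of 1143 bases, drawn across the single intron of 195 bases, held 193 of 6538 informative reads (2.95%) and 175 of 5357 (3.27%). Retention was taken from the span of this model, so reads that keep the intron and reads within 1 exon were not told apart. Myoz1-201 took 91.3% and 90.5%, and intron 4 was retained in 1.09% and 0.755% of informative reads. The short annotated Myoz1-203, of 2 exons, took 2.71% and 3.06%. Its start in intron 4 is that of the annotation, and where its single reads begin was not taken from the models. Myoz2-201 took 84.0% and 82.5%. An exon of 172 bases at chr3:123033192-123033363, annotated in Myoz2-203 alone, was present in 12 of 295 reads (4.07%) and 25 of 320 (7.81%), and this difference did not pass the test over 1971 alternative exons, of which 0.406% were called (adjusted p 0.642). Exon 3 of Myoz2 was kept in 97.3% and 97.2% of informative reads. Of the 7 member exons in that test, 0 were called and 2 had an unadjusted p under 0.05, both in Actn3. These were versions of its exons with shifted ends, on at most 46 reads a library.

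Synpo2l and Myoz3 held the largest shares of reads on models of a single exon. Synpo2l-202 took 54.0% and 56.2% of Synpo2l reads, and models of a single exon took 75 of 263 (28.5%) and 94 of 322 (29.2%). These models are 2012 and 2217 bases long, touch the last exon of 3048 bases and cross 0 introns. Among reads that used either junction into the last exon, the short form of Synpo2l-203 was used in 22 of 172 (12.8%) and 24 of 218 (11.0%). For Myoz3, 23 of its 24 reads (replicate 1) and 14 of 17 (replicate 2) lay on a single-exon model that runs 940 bases past the annotated 3′ end. This model touches the last exon and crosses 0 introns, so spliced and unspliced molecules cannot be told apart in it. The other 1 and 3 reads held every junction of the annotated transcript. Reads on models drawn across a whole intron of the reference transcript numbered 0 for Synpo2l and for Myoz3. Retention was taken from the spans of the models, so it stays unknown for reads on the single-exon models.

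**Figure D5:**
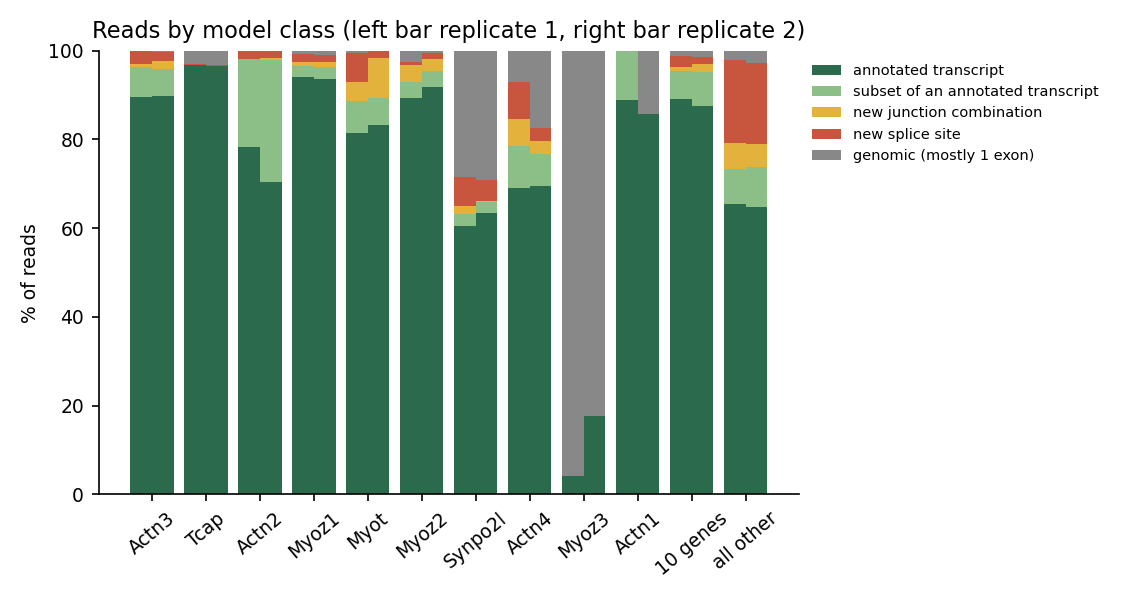
The share of reads in each model class for the 10 genes, for all 10 together and for all other annotated mouse genes, with the left bar for replicate 1 and the right bar for replicate 2. Annotated transcripts make up 89.0% and 87.6% of the reads of the 10 genes and 65.4% and 64.8% of those of all others, and Myoz3 stands apart with mostly single-exon models of the genomic class.

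Of the reads of the 10 genes, 89.0% and 87.6% matched an annotated transcript, against 65.4% and 64.8% over all other annotated genes. Partial matches made up 6.51% and 7.60%, close to the 8.06% and 8.87% of the other genes. Among the members, Actn2 held the largest share of partial matches in both libraries, at 19.8% and 27.3%. Models with a new splice site made up 2.29% and 1.45% of member reads, against 18.8% and 18.2% elsewhere. Models with a new combination of known sites made up 0.920% and 1.86%, against 5.70% and 5.28%. As shown for Myot, the same structure can be placed in either class, so neither share was compared between the libraries. These class shares are described without a test, because the genes differ in length and depth.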

How the data were processed

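Long-read RNA sequencing tables of 2 gastrocnemius libraries were used. As deposited by the authors, the values are raw counts of long reads per transcript model, with no normalization, and the model lengths and exon coordinates are in bases. The build was mm10 with the GENCODE M21 annotation, per the deposited notes. No aligner or read filter is named there. The source name TALON, a tool that assigns long reads to models, comes from the deposited annotation.

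A gene's level is the sum of its models' reads as CPM of the whole library. Log2 ratios used a pseudocount of 1 CPM. Fisher's exact test (two-sided, SciPy 1.17.1) compared each gene's reads with all other reads over genes with at least 10 reads summed. The tests on transcripts, exclusive exon pairs and alternative exons (pooled inclusion from 5% to 95%) required at least 20 reads in each library. The test of every transcript and the Actn2 values without the 10-exon model were added after seeing the data. P-values were Benjamini-Hochberg adjusted over all features tested, with a threshold of 0.05. Unannotated models were matched between libraries by their splice junctions. Ratio intervals come from the Wilson 95% interval of the read split. Intervals cover counting error only, and p-values compare 2 libraries, whose spread may be technical. The tests were checked on simulated reads drawn with counting error only. The 2 libraries differed by more than that, with a chi-square per degree of freedom of 5.90 over 7470 genes. The check does not cover this extra spread. Alternatives used edgeR 4.0.16 and DESeq2 1.42.0 size factors. All 10 members are named, and of the lists of other Z-disc and calcineurin genes the 4 with the highest level and the 4 with the largest called ratio over each list. The members and lists were chosen with earlier results of these data known.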

Additional observations from a re-analysis of the deposited data

How the results depend on the processing

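No paired analysis was possible because there is 1 group. Assuming a dispersion of 0.01 in edgeR's exact test called 173 genes in place of 730, and 176 with TMM or with DESeq2 size factors, and 0 members in place of 5 in each of the 3 fits, with a smallest adjusted p of 0.624, 0.648 and 0.649. The 5 members were called under each of the 5 other alternatives (annotated transcripts only, spliced models only, totals without mitochondrial and spike-in reads, a minimum of 1 or of 50 reads), with 510 to 705 genes called in all. With annotated transcripts only, the share of Actn3 among the alpha-actinins was 74.5% in place of 70.7%, which by construction leaves out the 10-exon model of Actn2, and 1 exclusive pair was called in place of 2. Counting an exon by any overlap called 25 exons in place of 8, and spliced models only gave 36 called most abundant transcripts in place of 83. Of the members, 0 exons were called under each of the exon settings, and Actn2 was the 1 member whose most abundant transcript was called under each of the transcript settings. Leaving out each library in turn gave 17041 to 20703 CPM for the members together, 69.0% to 72.5% for the share of Actn3, 87.9% to 90.4% for that of Myoz1 and 87.6% to 89.0% for annotated transcripts. A test between libraries cannot be made with 1 of them left out. Depth limits Actn1, Actn4 and Myoz3 most: 3 reads, the limit that a count of 0 allows, equal 2.22 and 2.21 CPM.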
